A study of Homo sapiens with 6 samples.

Results

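The clustered histone genes are the genes for histones H1, H2A, H2B, H3 and H4 that lie side by side in the genome. They were chosen by symbol alone, as every gene of the deposited table whose symbol had the form HIST1 to HIST4 followed by a histone type, or the present form of the same names. This rule took 46 of the 15917 listed genes (0.289%), all of them under their HIST symbols. Of these, 42 are annotated as protein coding and 4 as pseudogenes (HIST2H2BA, HIST2H2BB, HIST2H2BD and HIST3H2BA). By type there were 2 H1, 11 H2A, 16 H2B, 8 H3 and 9 H4 genes. Another 2 histone pseudogenes were listed under clone names, RP11-439A17.2 and RP11-196G18.22, and were not taken by the rule.

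The study asked what the loss of RBMS3, an RNA-binding protein, does to the transcripts of MDA-MB-231 cells, a triple-negative breast cancer line with a mesenchymal expression profile. Total RNA was sequenced from 6 libraries of MDA-MB-231 cells in 3 groups of 2 biological replicates, named shCTRL (genotype WT), shRBMS3-B3 (RBMS3 KD1) and shRBMS3-C3 (RBMS3 KD2). All groups were luciferase-labelled cells that received a lentiviral pLKO.1-Puro hairpin and puromycin selection: a scramble hairpin in shCTRL, and in the other two a hairpin against RBMS3, named B3 or C3 in the labels. The libraries were made from total RNA after depletion of ribosomal cDNA, without selection for poly(A) tails. The table holds 1 mean normalized count per gene, pooled over libraries that the sources do not name. This pooled mean is termed the level here, and it carries no replicate spread and no group difference, so no test between groups was made and depth per library is unknown.

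Histone proteins package DNA. H2A, H2B, H3 and H4 form the core of the nucleosome, and H1 binds the DNA that links nucleosomes. The clustered genes are transcribed mostly in S phase, when new DNA has to be packaged, and their transcripts differ from nearly all others in having no introns and no poly(A) tail. The transcript ends just after a short stem-loop, which is bound by SLBP (stem-loop binding protein) and is cut with the help of the U7 small nuclear RNP, of which LSM11 is a part. NPAT, a cyclin E-dependent coactivator, drives their transcription. Because the genes arose by duplication, several copies are almost the same in sequence, and reads from them are hard to assign.

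The stem-loop was searched for in the 100 bases after each stop codon, as a degenerate 16-base pattern of the histone element. The pattern has 6 stem bases, a loop of 4 bases and the 6 stem bases that close it. Pairing was not tested, and hairpins of other sequence were not sought. The pattern was present in 42 of 42 protein-coding members and in 1 of 12329 other listed protein-coding genes (0.00811%). That gene was H2AFX, the gene of the DNA damage variant H2A.X. The members carried 7 forms of the 16-base element, which are printed because they set this family apart and because the H4 genes carry forms of their own. They are written as DNA, 5′ to 3′, with the stem in capitals and the loop in lower case, and each is placed in hg38 at the member of highest level that carries it.
HIST2H2AA3 (chr1:149842223-149842238, minus strand): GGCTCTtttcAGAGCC
HIST1H4B (chr6:26026901-26026916, minus strand): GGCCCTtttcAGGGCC
HIST1H2BK (chr6:27146366-27146381, minus strand): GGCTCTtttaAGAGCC
HIST1H4K (chr6:27831178-27831193, minus strand): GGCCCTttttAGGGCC
HIST1H2AG (chr6:27133515-27133530, plus strand): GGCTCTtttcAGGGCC
HIST2H2AC (chr1:149887391-149887406, plus strand): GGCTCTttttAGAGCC
HIST1H2AK (chr6:27837885-27837900, minus strand): GGTTCTtttcAGAGCC

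The form of HIST2H2AA3 was shared by 25 members of the types H1, H2A, H2B and H3. The forms of HIST1H4B and HIST1H4K were carried by 6 and 3 members, all of them H4 genes, so that every one of the 9 H4 members had the same stem and no other member did. The form of HIST1H2BK was carried by 5 members, namely HIST1H2BC, HIST1H2BD, HIST1H2BJ, HIST1H2BK and HIST2H2AB. The remaining 3 forms occurred in 1 H2A gene each. H2AFX carried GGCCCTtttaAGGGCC, which pairs the stem of the H4 genes with the loop of the HIST1H2BK form.

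The element began 22 to 67 bases after the stop codon, with a median of 35.5 bases. In 40 of the 42 annotated transcripts the RNA ended within 10 bases of it, after a median of 5 bases. HIST1H3A ran on for 11 bases. HIST2H2BE ran furthest, with a representative transcript that continued for 1729 bases past the stem-loop and a 3′ untranslated region (3′UTR) of 1801 bases. Several other members, such as HIST1H2BC and HIST1H2BD, also have longer annotated transcripts, whose ends were not examined.

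**Figure D1:**
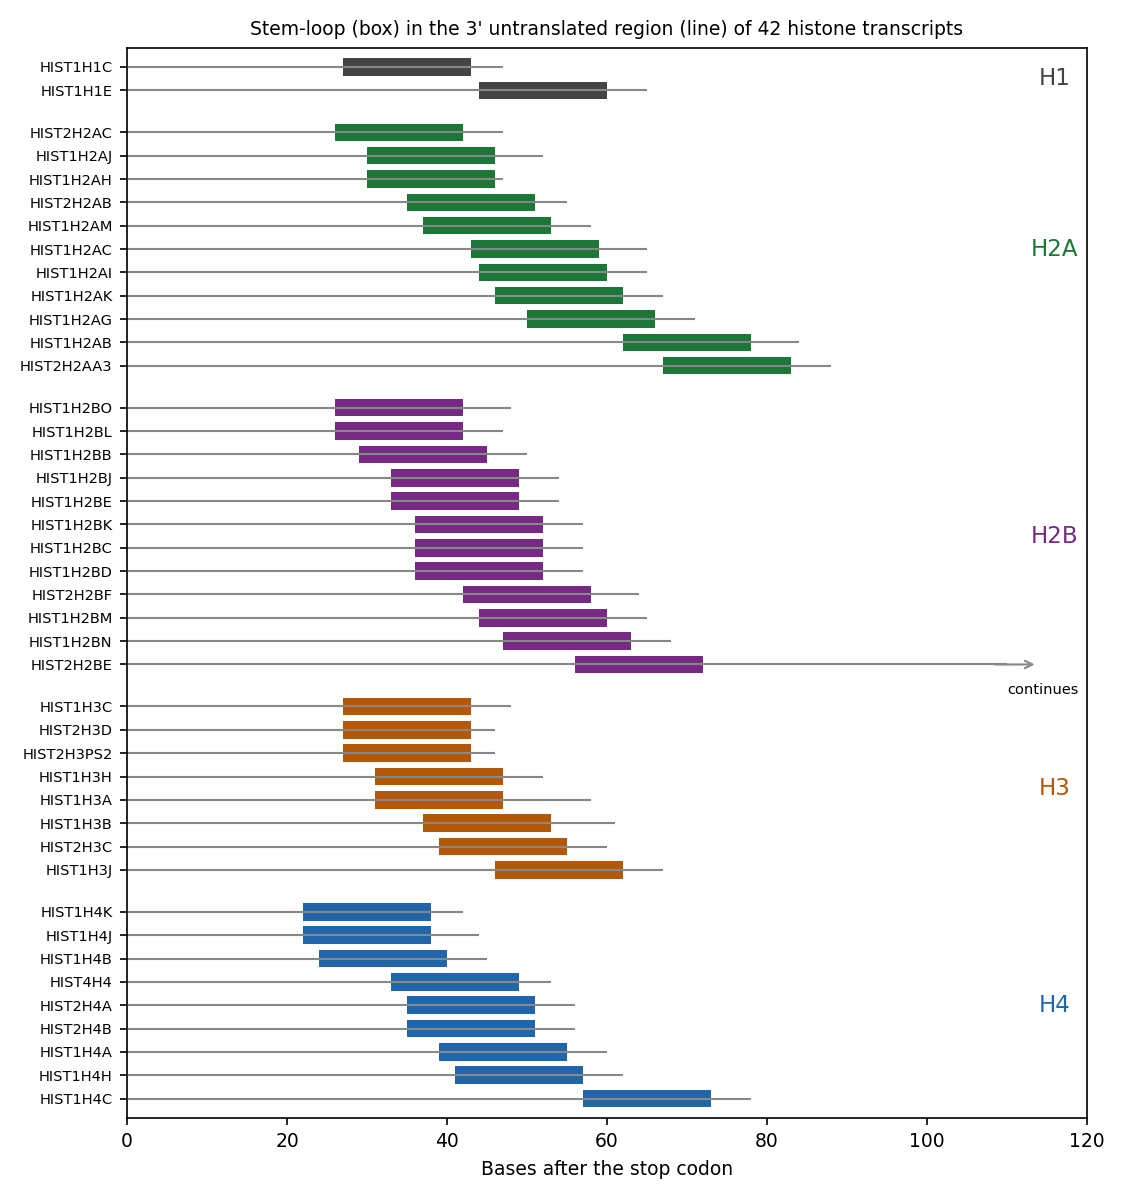
Position of the stem-loop (box) in the 3′UTR (line) of the representative transcripts of the 42 protein-coding members. The linear axis gives bases after the stop codon, and genes are grouped and coloured by histone type. The boxes start between 22 and 67 bases, the lines end shortly after them, and the line of HIST2H2BE continues beyond the axis.

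The members also differed from the other protein-coding genes in features that the symbol rule did not use. In the representative transcript all 42 had 1 exon, against 1.76% of the others. Their representative transcripts had a median length of 486 bases, against 3452, and a median 3′UTR of 57 bases, against 1382. Their median GC content was 58.5%, against 48.0%. The study tied RBMS3 to an AUA element in 3′UTRs. Searched in DNA letters on the sense strand as NNATANA, with A, G or T first and A or T at the other open positions (12 heptamers), it was present in the 3′UTR of 1 of the 42 members (2.38%) and of 85.1% of 12311 other genes. The member that held it was HIST2H2BE, the gene with the long 3′UTR. Length differs greatly between these sets: 41 members had a 3′UTR of at most 88 bases, and among the 337 other genes with a 3′UTR no longer than that, 48.7% held the motif. In the coding sequence, 1 member (HIST1H2AB) and 40.7% of the other genes held it. The pattern also takes in AATAAA, the canonical polyadenylation signal, where A, G or T stands before it. Transcripts that end at the stem-loop have no poly(A) tail, so the 3′UTR shares compare genes with different kinds of 3′ end. Matches through AATAAA were not counted apart, and their part in the 3′UTR contrasts was not tested. Motif matches describe letters, and binding of RBMS3 to the members was not measured in this table.

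Annotated clustered histone genes that were not listed do not enter the values below. As a set, the members were abundant among the listed genes. Their levels ran from 71.1 for HIST3H2BA to 22867 for HIST2H2AA3, a range of 322-fold, with a median of 3209. The median over all listed genes was 363.8, so that the 2 medians differed 8.82-fold. Above the overall median lay 42 of 46 members, and 28 were in the top 10% and 3 in the top 1% of all genes. Together the members held 0.982% of the summed level of the table while making up 0.289% of its rows. The level is not divided by length in the table, and the members are short: per kilobase of representative transcript, the protein-coding members had a median level of 8737, against 151.5 for the other protein-coding genes. No spread between libraries stands behind these medians, and they are given without a test.

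**Figure D2:**
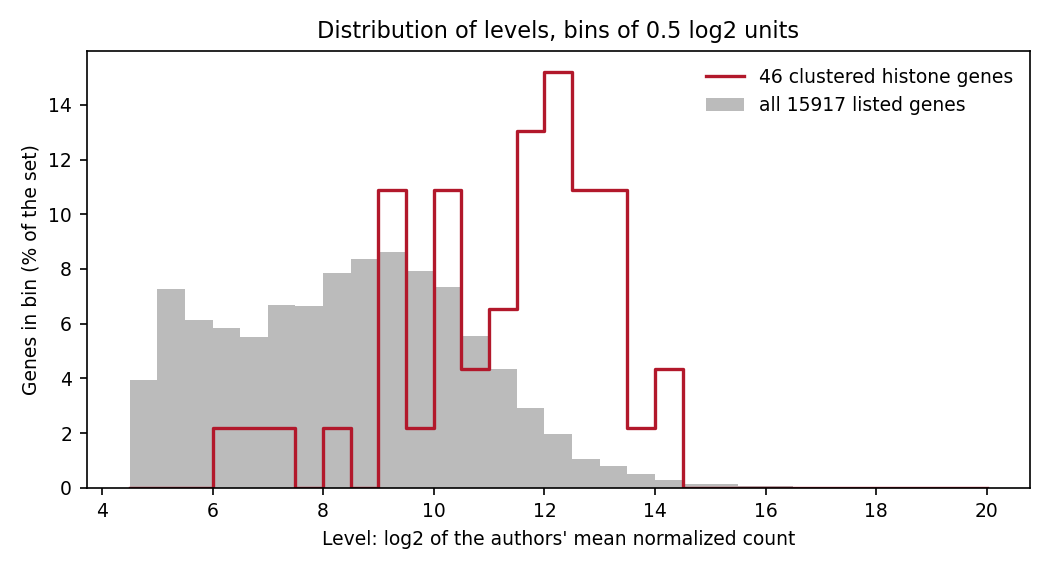
Distribution of the level (log2 of the authors' mean normalized count, bins of 0.5) over all 15917 listed genes (grey bars) and over the 46 clustered histone genes (red line), each in percent of its set. The members lie mostly to the right of the other genes, with 42 of 46 above the overall median of 363.8.

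The level was concentrated in few members. HIST2H2AA3, HIST1H1E and HIST1H1C held 27.0% of the members' sum and the 10 highest members 54.9%. The same 10 genes led when levels were divided by the length of the representative transcript. Per kilobase of the longest annotated transcript the set changed. HIST2H2BF (8997) and HIST1H2BJ (8151) then lay below HIST1H4K (15965) and HIST1H2AM (15485). Besides those 3 they were HIST2H3C (level 9509), HIST2H2BF (8988), HIST1H3B (8952.5), HIST1H3C (8909.6), HIST1H2BK (8445), HIST1H2AG (7877) and HIST1H2BJ (7743.5). H1, H2A, H2B and H3 genes were among these 10, and no H4 gene was. Per kilobase of representative transcript, however, HIST1H4K came next, at 15965 against 15977 for HIST1H2AG. Without a spread no order can be given between those 2. The 5 lowest were HIST3H2BA (71.1), HIST2H4B (94.9), HIST1H4J (141), HIST2H3PS2 (303) and HIST2H2BD (521), of which HIST3H2BA and HIST2H2BD are pseudogenes. The other 3 are near-identical to a member of high level.

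The linker histone genes had the highest median level per kilobase, 23315. HIST1H1E was at 24600 per kilobase and HIST1H1C at 22030 per kilobase. Only 2 of the 6 annotated clustered H1 genes were listed. The identity between the 2 transcripts was 74.3%, and 99.1% and 99.3% of their 31-mers occurred in no other gene, where a 31-mer is a stretch of 31 bases, the default unit by which Salmon matches reads to transcripts.

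Among the 11 H2A genes, the level per kilobase ran from 2099 for HIST1H2AK to 42903 for HIST2H2AA3, with a median of 9277. HIST2H2AA3 stood above every other member, but none of its 31-mers was unique. Its copy HIST2H2AA4 is 99.8% identical and was not among the listed rows, and how reads common to both were assigned was not tested. The next H2A genes were HIST1H2AG at 15977 and HIST1H2AM at 15485 per kilobase, with 84.4% and 30.9% unique 31-mers. Of the 487 bases of the HIST1H2AM transcript, 346 (71.0%) also lie in annotated exons of HIST1H3J on the same strand, and reads from those bases cannot be told apart by position.

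The 12 protein-coding H2B genes spanned 640 to 18268 per kilobase, with a median of 8273. The highest were HIST2H2BF at 18268, HIST1H2BK at 17060 and HIST1H2BJ at 16132 per kilobase, with 13.6%, 29.0% and 78.9% unique 31-mers. HIST2H2BE was lowest, on account of the long annotated transcript: per kilobase of coding sequence alone it was at 3766. The 4 H2B pseudogenes had levels of 1651 (HIST2H2BA), 659 (HIST2H2BB), 521 (HIST2H2BD) and 71.1 (HIST3H2BA). The first 3 had no unique 31-mer and lie by 99.0% to 100% in exons of another annotated gene on the same strand, so their levels are uncertain.

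For H3, 8 genes had levels per kilobase from 647 to 18332.5 and a median of 6546. HIST1H3C (18332.5), HIST2H3C (18216) and HIST1H3B (17520) lay close together, and without a spread no order can be given among them. HIST1H3C and HIST1H3B each had 93.6% unique 31-mers. HIST2H3C had 0.813%, since its copy HIST2H3A is 99.2% identical, and HIST2H3A was not among the listed rows. HIST2H3PS2, named as a pseudogene but annotated as protein coding, was lowest.

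The 9 H4 genes had the lowest median of the types, 3662 per kilobase, and ran from 239.7 for HIST2H4B to 15965 for HIST1H4K. In 4 of them (HIST1H4K, HIST1H4J, HIST2H4A and HIST2H4B) under 10% of 31-mers were unique, and these 4 hold both ends of the H4 range. The H4 median and its place among the types rest on the levels of these 4 as listed. How reads were divided between such copies was not tested, and another division could change that place. The other 5 were 92.7% to 100% unique and ran from 1565 for HIST1H4A to 9439.8 for HIST1H4B. HIST4H4, the only member on chromosome 12, was at 3513 per kilobase.

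**Figure D3:**
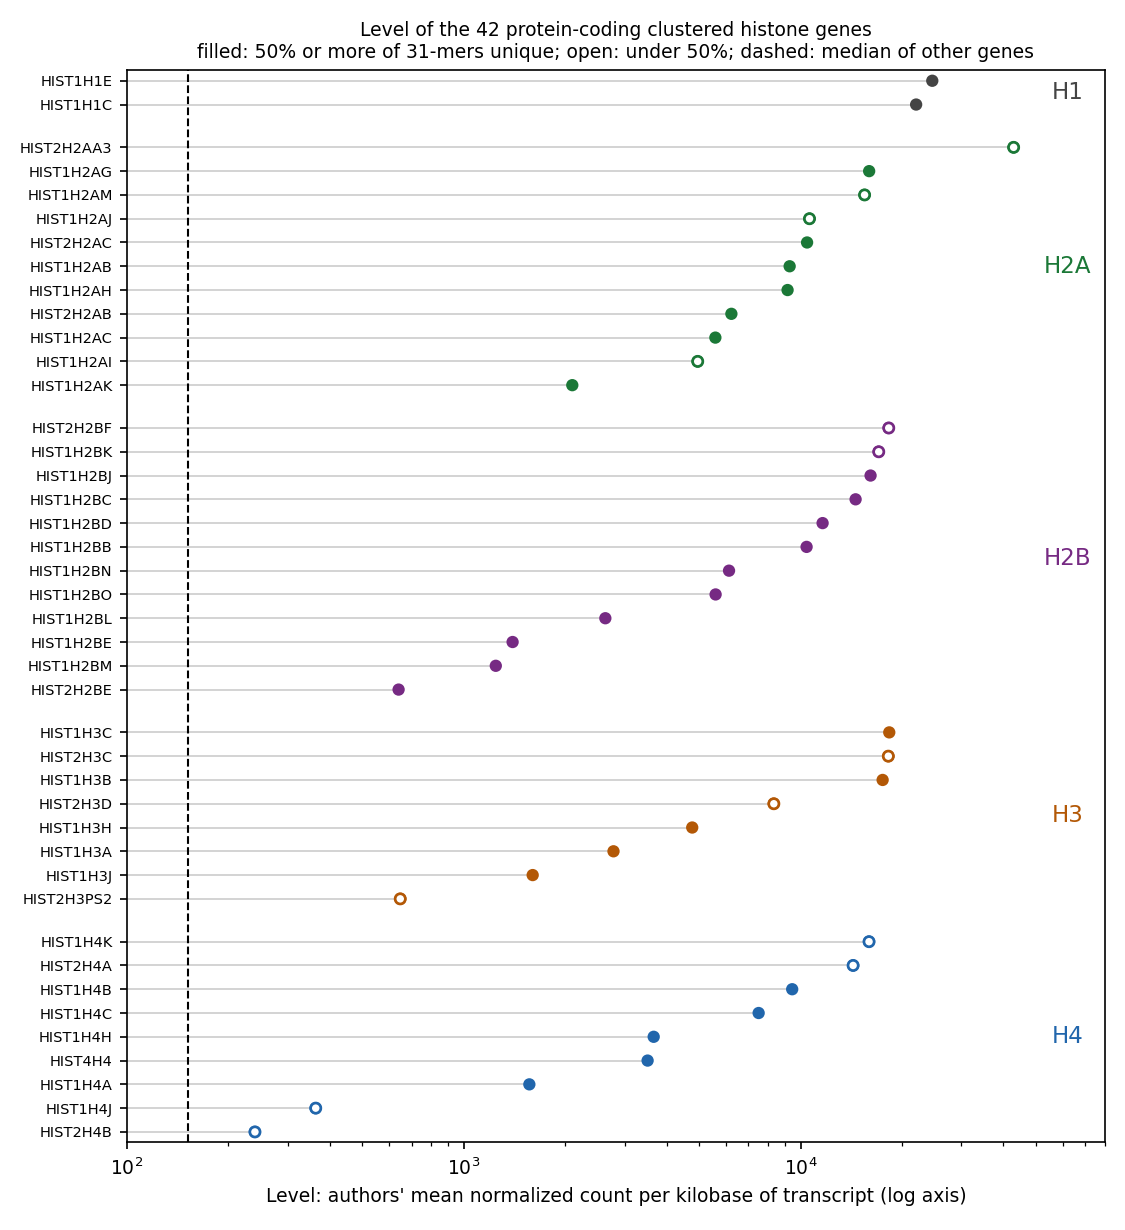
Level per kilobase of representative transcript (log axis) of each of the 42 protein-coding members, ordered within histone type, with the dashed line at 151.5, the median of the other protein-coding genes. Open circles mark the 13 genes with under 50% unique 31-mers, which include HIST2H2AA3 at the top and HIST2H4B at the bottom.

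Summed over the protein-coding members of a type, the level per kilobase was 132725 for H2A, 105693 for H2B, 72190 for H3, 56570.3 for H4 and 46629.9 for H1. Relative to H4 these sums were 2.35 for H2A, 1.87 for H2B, 1.28 for H3 and 0.824 for H1. They cover listed genes only, and the listed share of annotated protein-coding genes differed by type. It was 2 of 6 for H1, 11 of 17 for H2A, 12 of 15 for H2B, 8 of 15 for H3 and 9 of 15 for H4. With the genes of under 50% unique 31-mers left out, a setting chosen after the data were seen, the ratios to H4 were 2.29, 2.74, 1.75 and 1.82, so that H2B then exceeded H2A and H1 exceeded H4. The nucleosome core takes up the 4 core histones in equal number, and the RNA sums are given as levels only, with no measure of protein.

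Shared sequence bears on many single levels. The median share of unique 31-mers was 79.6% for the members and 99.5% for other protein-coding genes, and 13 of 42 members (against 7.08% of the others) had under 50%. The representative transcripts of HIST2H4A and HIST2H4B are identical, yet the genes were listed at levels of 5670 and 94.9, a ratio of 59.7. Both genes also have longer annotated transcripts, which were not compared. HIST1H4K and HIST1H4J are 99.0% identical and were listed at 6178 and 141, a ratio of 43.7. HIST2H3D and HIST2H3PS2 are 98.5% identical and were listed at 3905 and 303, a ratio of 12.9. How the quantification divided reads between such copies was not tested. The sums of the 3 pairs, 5765, 6320 and 4208, do not depend on the division within a pair. Sharing of reads with genes outside a pair was not tested.

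**Figure D4:**
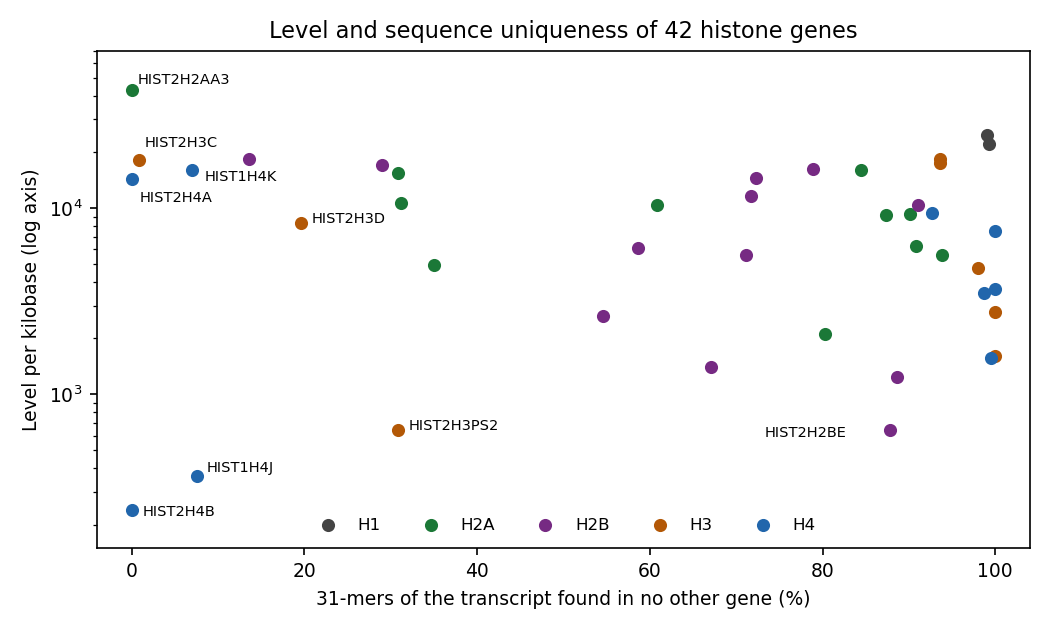
Level per kilobase (log axis) against the percentage of 31-mers found in no other gene for the 42 protein-coding members, coloured by type. HIST2H4A and HIST2H4B, both at 0%, stand at 14318 and 239.7 per kilobase, and HIST1H4K and HIST1H4J, both under 10%, are also far apart.

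By place in the genome (hg38), 31 members lay in the HIST1 cluster on chromosome 6 and held 69.8% of the members' sum, and 13 in the HIST2 group on chromosome 1 held 29.5%. On chromosome 6 they fell into 3 stretches. The first (chr6:26020451-26285638) held 15 members of all 5 types and 41.3% of the sum, the second (chr6:27125897-27147562) held 2 H2A and 2 H2B genes and 13.1%, and the third (chr6:27807479-27893891) held 12 members and 15.4%. The 4 genes of the second stretch had the highest median per kilobase of the 3, 16055, against 9439.8 and 4857. On chromosome 1 the stretch chr1:149782689-149887965 held 10 members and 28.3% of the sum. Of the 68 annotated protein-coding clustered histone genes, 42 were listed, with 31 of 52 in HIST1, 10 of 12 in HIST2, 0 of 3 in HIST3 and the single gene of HIST4.

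Many H2A and H2B genes stand head to head and share the DNA between their starts. Among the members 9 such pairs had starts within 500 bases, at 170 to 291 bases from each other. The level per kilobase of the H2A gene was higher in 5 pairs and that of the H2B gene in 4, and the ratio of H2A to H2B ran from 0.342 to 40.6 with a median of 1.88. HIST1H2AG and HIST1H2BJ had nearly the same level per kilobase of representative transcript, 15977 and 16132, a ratio of 0.990. HIST1H2AK and HIST1H2BN were at 2099 and 6129, the lowest ratio. Per kilobase of the longest annotated transcript HIST1H2BJ was at 8151, and HIST1H2BN was at 803, below HIST1H2AK at 2099. The direction of the HIST1H2AK pair, and with it the split of 5 and 4, thus depends on the transcript taken. HIST2H2AA3 and the pseudogene HIST2H2BD were at 42903 and 1058, the highest. HIST2H2AC exceeded HIST2H2BE 16.3-fold per transcript length and 3.54-fold per coding length. Across the 9 pairs, log2 levels per kilobase of the 2 genes had a Pearson r of -0.296 and a Spearman rho of -0.233. Both coefficients include the pseudogene HIST2H2BD, at 1058 beside HIST2H2AA3 at 42903. They also take HIST2H2BE at 640 per kilobase of its long transcript, against 3766 per kilobase of coding sequence. No coefficient is given without that pseudogene or per coding length, so no direction is drawn from the negative sign. The pair values are descriptions of 9 pairs that come from the same pooled libraries, and several of the genes share sequence with copies elsewhere.

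**Figure D5:**
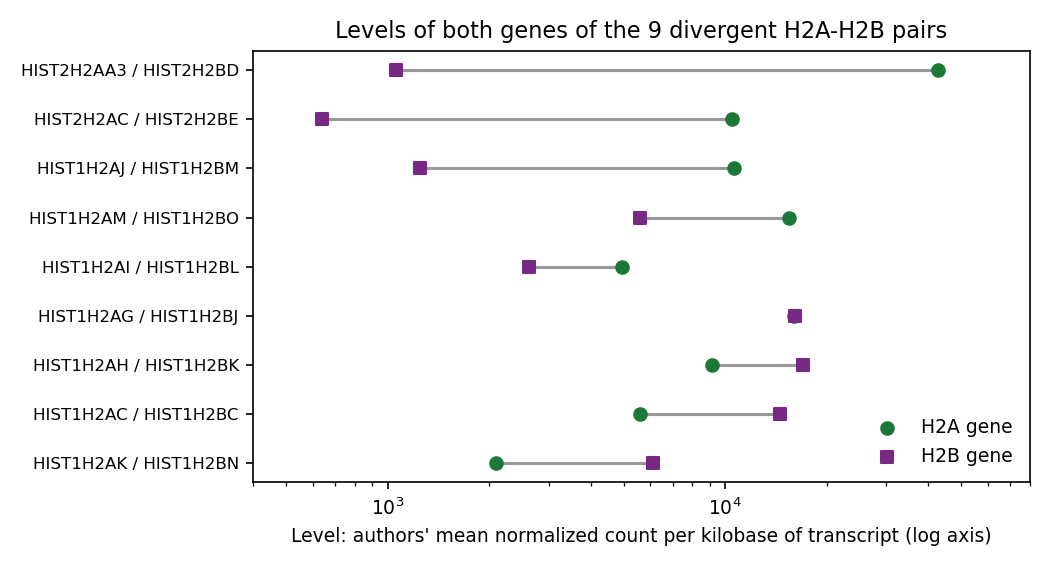
Level per kilobase of representative transcript (log axis) of the H2A gene (circle) and the H2B gene (square) of each of the 9 divergent pairs, ordered by their ratio. The ratio runs from 0.342 at the bottom to 40.6 at the top, and the 2 symbols of HIST1H2AG and HIST1H2BJ nearly coincide.

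The promoters of the members shared short motifs by type. RefSeq promoters of GRCh38.p14, taken from 250 bases before to 50 bases after the gene start, were matched for 38 of the 42 protein-coding members and were compared with all 27305 promoters of the same length. TATAAA on the sense strand was present in 27 of the 38 (71.1%), against 7.71% of all promoters. CCAAT on either strand was present in 31 (81.6%), against 35.7%, and these were all 31 of the H1, H2A, H2B and H3 promoters and 0 of the 7 H4 promoters. The octamer ATTTGCAT, a motif known from H2B promoters and bound by the POU factor OCT1, was sought on either strand. It was present in 16 (42.1%), against 1.80%, namely in 9 of 12 H2B and 7 of 10 H2A promoters and in none of H1, H3 or H4. The windows of paired H2A and H2B genes overlap, so that 1 octamer or 1 CCAAT can be counted in both.

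The octamers of the 9 H2B genes are printed because their levels differ widely although the motif is the same. Each line gives 24 bases of GRCh38.p14, read 5′ to 3′ on the strand of the gene, with the octamer in capitals, from the highest level to the lowest.
HIST2H2BF (chr1:149812404-149812427, minus strand): gagtcttcATTTGCATacgggctc
HIST1H2BK (chr6:27146889-27146912, minus strand): ttcaccttATTTGCATgagaggtc
HIST1H2BJ (chr6:27132827-27132850, minus strand): ttcaccttATTTGCATaagcgatt
HIST1H2BC (chr6:26124034-26124057, minus strand): catacctcATTTGCATagctctgc
HIST1H2BB (chr6:26043818-26043841, minus strand): aattccatATTTGCATaaacccca
HIST1H2BO (chr6:27893268-27893291, plus strand): tcctcttaATGCAAATgagctttc
HIST2H2BE (chr1:149886713-149886736, minus strand): gagccctaATTTGCATaaggtggt
HIST1H2BE (chr6:26183645-26183668, plus strand): gctccttcATTTGCATgcagactt
HIST1H2BM (chr6:27814966-27814989, plus strand): tactcctaATTTGCATaataacat

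In 8 of these the octamer read in the sense direction, and in HIST1H2BO it lay on the opposite strand. Its first base stood 46 to 149 bases before the RefSeq start. In the 3 genes of highest level (HIST2H2BF, HIST1H2BK and HIST1H2BJ) that distance was 46 to 49 bases. HIST1H2BM, with a level of 582, had it at 48 bases and HIST2H2BE, with 1424, at 46 bases. A relation between distance and level was not tested. The levels of HIST2H2BF and HIST1H2BK rest on 13.6% and 29.0% unique 31-mers.

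The genes around this system were listed as well. Of 24 factors tied to histone RNA, from its transcription and processing to its translation and decay, 24 were listed. Of these, 21 had a level above the overall median of 363.8, with a list median of 878. The highest were SNRPB (5398), UPF1 (3961) and SYMPK (3816), which encode an Sm protein, an RNA helicase of histone RNA decay and the scaffold of the cleavage complex. SLBP was at 2625 and NPAT at 477. The lowest were LSM11 (245), MIF4GD (267) and LSM10 (343). Of 20 histone chaperones and their partners all were listed and 19 lay above the overall median, from ASF1A at 182 to SSRP1 at 11534, with SET (11353) and NAP1L1 (10107) next to SSRP1. The lowest after ASF1A were HAT1 (679.5) and CHAF1B (912).

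Histone variant genes that lie outside the clusters gave a point of comparison. Most are made without close coupling to S phase, although H2AFX carried the stem-loop and CENPA, the centromeric variant, is made mainly in G2. Of 12 such genes 10 were listed, all above the overall median, with a median level of 3717. Their median level per kilobase was 2075, against 8737 for the protein-coding clustered members. By level, H2AFX (6750), H2AFY (5279) and H3F3B (4696) were highest and CENPA (481), H2AFJ (1496) and H1FX (1755) lowest. Per kilobase, H2AFZ was at 4816 and CENPA at 346.

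Markers of the line were checked on the same levels. VIM was at 69336, AXL at 35388 and MSN at 13493, and 6 of 7 markers expected in this mesenchymal line were listed, all above the overall median. SPARC was not among the listed rows. ESR1, PGR and the leukocyte marker PTPRC were not among them either, CDH1 was at 31.6 and EPCAM at 107. The endothelial marker PECAM1 was at 69.0 and COL1A1, a fibroblast collagen, at 192.5, both below the overall median. KRT18 (12689) and ERBB2 (1557), placed among the low markers, were above the overall median. RBMS3 had a pooled level of 271.5, at percentile 43.3 of the listed genes, and its reduction in the knockdown libraries was not checked, since the level is pooled and the authors' own comparison was not used.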

How the data were processed

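As deposited, the signal of each gene is 1 normalized count averaged over libraries, used here as the level. The authors took total RNA with Trizol, made stranded total RNA libraries from 5 ng with a SMARTer Pico Input kit and sequenced paired ends on a NextSeq 500. The submitters' processing notes name Salmon, DESeq2 and hg38; versions and annotation for these libraries, and which of them enter the mean, are not given in the sources used here (a supplementary legend gives 2 knockdown and 2 control replicates for the differential expression, without naming them). The table's other columns hold the authors' own comparison (fold changes, their errors, statistics and p-values); they were not used, so knockdown was not compared with control. Members and lists were chosen with earlier results of these data known.

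Members were matched to GENCODE 44 by Ensembl ID (41) or through RefSeq synonyms (5). Lengths, exons and 3′UTRs came from the MANE Select or canonical transcript. The stem-loop was sought in the hg38 genome within 100 bases of the stop codon, and unique 31-mers against all other GENCODE 44 genes. Promoters came from RefSeq. The work was done in Python 3.11.15 with numpy 2.4.6 and pandas 2.3.3. Only the functions that find the stem-loop, compare 31-mers and read the opposite strand were tested on simulated sequences. Any member could be named, and of the other lists the 3 highest and 3 lowest with SLBP, NPAT and LSM11. Replicate labels could not be used, and alternatives are in the closing section.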

Additional observations from a re-analysis of the deposited data

How the results depend on the processing

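Of 22 alternatives to 13 results, 19 moved the value by at most 1.5-fold or kept it inside its 95% binomial interval. The median level of the members went from 3209 to 6867 per kilobase of representative transcript, a change of unit by construction. With the most frequent stem-loop form only, 25 members matched in place of 42. With only members of at least 50% unique 31-mers, chosen after seeing the data, the summed level per kilobase of H1 over that of H4 went from 0.824 to 1.82, with 5 of 9 H4 genes left. No paired analysis was possible because the level is 1 pooled mean that carries no replicate. Tests of knockdown against control with edgeR or another tool, other filters on low counts, leaving out a replicate and each hairpin alone were not run, since they need counts per library. For the same reason no depth or interval can be given for a level, and differences between members of similar level cannot be judged.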
